A study of Mus musculus with 6 samples.

Results

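From the 38924 genes counted in microglia of WT mice of 2 ages, a chosen set of 8 chemokine and chemoattractant receptors, which guide cells toward chemical attractants, is described here. The 8 genes were taken by symbol from the Ensembl identifiers of the count tables: the chemokine receptors Cx3cr1, Ccr1, Ccr6 and Cxcr4, the chemerin receptors Cmklr1 and Ccrl2, and the formyl peptide receptors Fpr1 and Fpr2. All 8 were found, and all 8 had enough counts to be tested between the ages. They lie on chromosomes 1, 5, 9 and 17 of GRCm38.

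The libraries came from female WT mice of the C57BL/6 strain, namely 3 mice aged 5 weeks and 3 aged 24 weeks, each giving 1 library. These mice were the controls in a study of Rett syndrome, and the Het libraries of that study were not analysed here. Microglia, the resident macrophages of the brain, were isolated from whole brain without meninges using magnetic beads against CD11b, a surface protein that other macrophages, monocytes and neutrophils also carry. The selection enriches such cells and does not exclude others, and markers of oligodendrocytes (summed level 850 to 2222 normalised CPM, counts scaled to library size with TMM), astrocytes (363 to 644) and endothelial cells (295 to 666) were found in every library. Each age filled its own sequencing lane, so age and lane cannot be told apart. The 5-week libraries held 23198065 to 46434788 gene counts and the 24-week libraries 10410625 to 13554336. In the 24-week replicate 3, Xist, the RNA of the inactive X chromosome in female cells, had 78 counts against 31677 to 59021 in the other 5 libraries, while Y-linked genes had 0 counts in all 6, so this library stands apart from its label and the receptor calls are also given without it. The summed level of 13 homeostatic microglia markers such as P2ry12 and Tmem119 was 26833 to 31986 normalised CPM at 5 weeks and 22931 to 25428 at 24 weeks, and each of the 13 was above 1 CPM in at least 1 library.

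Chemoattractant receptors are G protein-coupled receptors of the cell surface. A ligand such as a chemokine activates an inhibitory G protein, and the cell polarises and moves up the ligand's gradient, after which arrestins and receptor kinases switch the receptor off. In the brain, microglia sense neurons through CX3CR1, whose ligand fractalkine is made by neurons, while many of the other receptors in this family are better known from blood leukocytes and from inflamed tissue. Atypical receptors, such as CCRL2, bind a ligand without the usual G protein signal.

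Cx3cr1, the fractalkine receptor (ENSMUSG00000052336, GRCm38 chr9:119901616-120069879, minus strand), was by far the most abundant of the 8. Compared per length as RPKM (reads scaled to gene length and library size), its level averaged 1080 ± 35.9 at 5 weeks and 933 ± 68.5 at 24 weeks (SD, n = 3 per age). This placed it 36th of the 15959 tested genes with a known length. In every library it was 11.7 to 16.2 times the level of Ccrl2, the next of the 8 in the mean order. Cx3cr1 made up 86.8 ± 1.67% of the summed RPKM of the 8 genes at 5 weeks and 85.0 ± 0.696% at 24 weeks. Below it, Ccrl2 averaged 77.5 RPKM at 5 weeks and 64.9 at 24 weeks, and Cmklr1 averaged 58.8 and 74.6. The ranges of Ccrl2 and Cmklr1 overlapped at both ages, but within libraries Ccrl2 was above Cmklr1 in 3 of 3 at 5 weeks and below it in 3 of 3 at 24 weeks. Ccr1 averaged 17.2 RPKM at 5 weeks and 8.68 at 24 weeks, against 7.06 and 11.7 for Cxcr4. Ccr1 likewise stood above Cxcr4 in 3 of 3 libraries at 5 weeks and below it in 3 of 3 at 24 weeks. Fpr1, Ccr6 and Fpr2 were the lowest, between 0.453 and 2.05 RPKM in all libraries, and among them only Fpr1 over Ccr6 at 5 weeks and Ccr6 over Fpr2 at 24 weeks were separated between neighbours in the order.

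**Figure D1:**
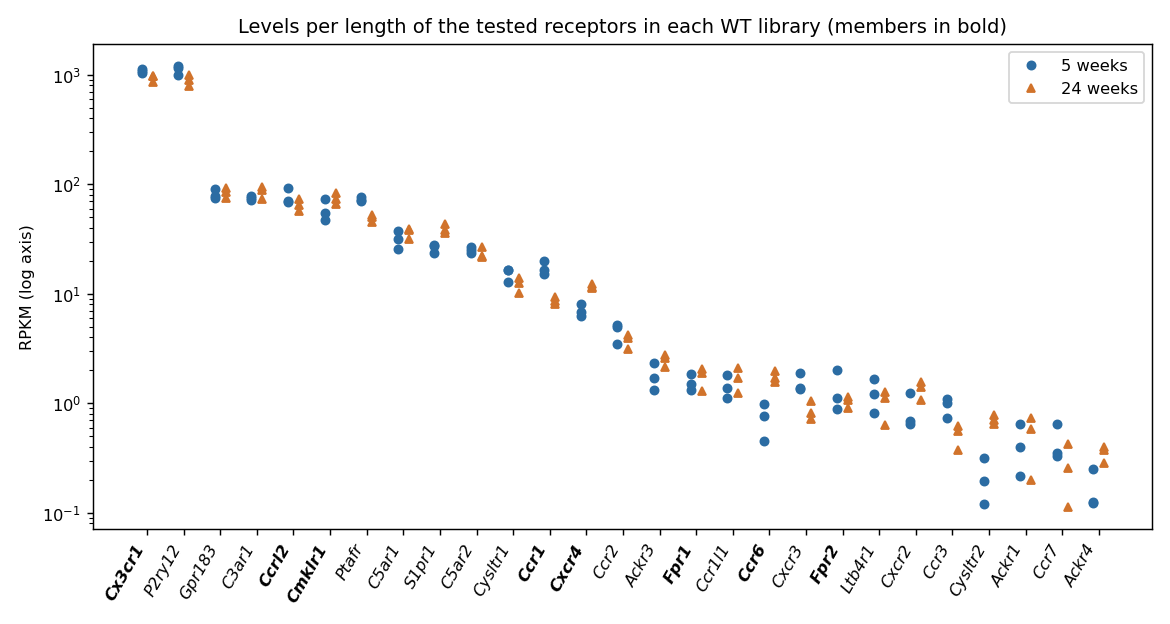
Level per length (RPKM, log axis) of 27 tested chemoattractant receptors in each of the 6 libraries, ordered by their mean, with points coloured by age. Cx3cr1 and P2ry12 sit between 790 and 1200.0 RPKM and overlap each other, and the next receptors, Gpr183 and C3ar1, sit between 72.2 and 95.3.

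Between the ages, Ccr1 was lower at 24 weeks, Cxcr4 and Ccr6 were higher, and the other 5 receptors did not pass the test. A gene was called changed where edgeR's quasi-likelihood test gave a Benjamini-Hochberg adjusted p under 0.05 over all 16157 genes tested, and a positive log2 fold change means a higher level at 24 weeks. Thus 3 of 8 were called, beside 28.8% of all genes tested, with 2 higher beside 15.5% and 1 lower beside 13.3%, so the share called among the 8 is near the background. The values of the ages did not overlap for 4 of the 8 (Ccr1, Cxcr4, Ccr6 and Cx3cr1), beside 45.1% of all genes. The median log2 fold change of the 8 was -0.03, against 0.00 over all genes, and the median absolute change was 0.35 against 0.33. In these bulk libraries, fewer cells carrying a receptor and less receptor RNA per cell cannot be told apart. Without the 24-week replicate 3 the same 3 receptors were called, beside 20.8% of all genes.

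**Figure D2:**
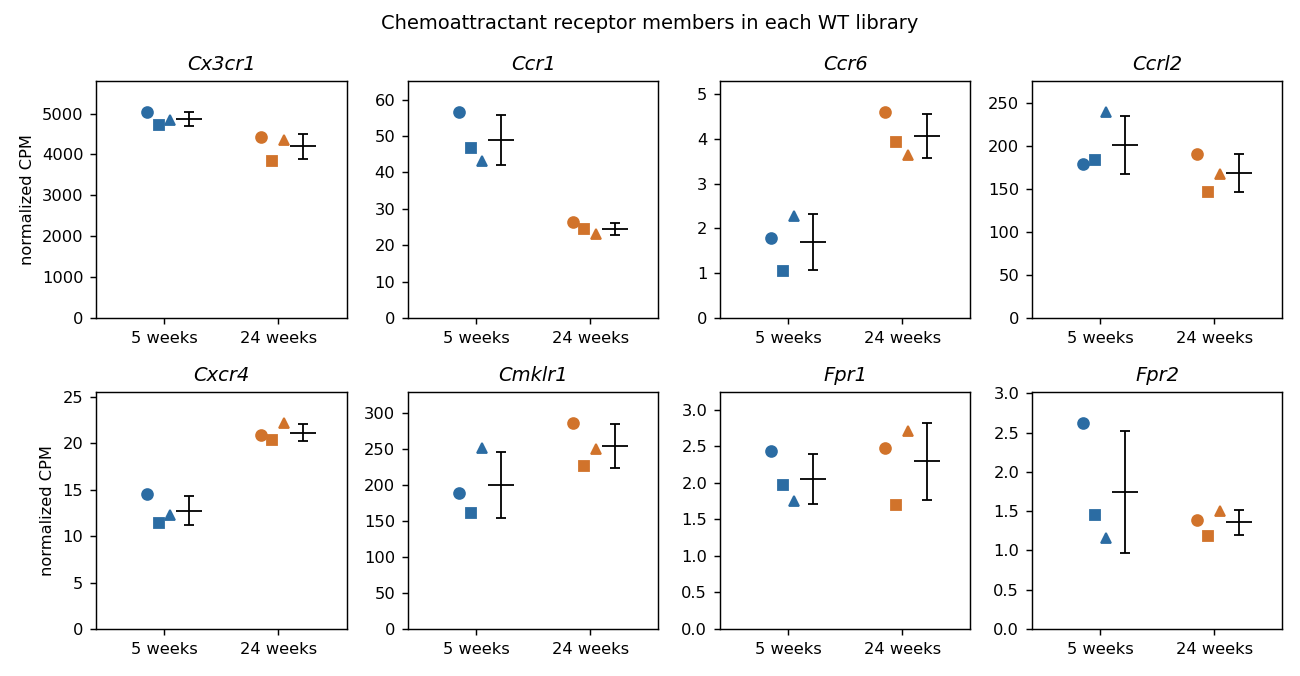
Normalised CPM of the 8 receptors in each library, 1 panel per gene with its own axis, with points for the libraries and bars for the mean and SD of each age (n = 3). In the panels of Ccr1, Ccr6, Cxcr4 and Cx3cr1 the points of the ages do not overlap, and in the other 4 they do.

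Among the chemokine receptors, Cx3cr1 had 161169, 107737 and 209844 counts in the 5-week replicates 1 to 3 and 60545, 52079 and 46463 in the 24-week replicates. After scaling for depth these were 5038, 4716 and 4848 CPM at 5 weeks and 4418, 3850 and 4342 CPM at 24 weeks. All 3 libraries of 24 weeks were below all 3 of 5 weeks, but by little. The log2 fold change was -0.21 (95% interval -0.51 to 0.08, adjusted p = 0.261 by edgeR), which did not pass. Of the 13 microglia markers named above 4 were lower, 1 higher and 8 did not pass, and their part in the Cx3cr1 values was not tested.

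Ccr1 (ENSMUSG00000025804, chr9:123962124-123968692, minus strand) is a receptor for inflammatory chemokines such as CCL3, CCL5, CCL7 and CCL9. Its values were 56.6, 46.8 and 43.2 CPM at 5 weeks and 26.3, 24.5 and 23.0 CPM at 24 weeks, from 1068 to 1871 counts and from 246 to 360 counts. Every 24-week library was below every 5-week library, and edgeR's estimate was 1.98-fold lower. The means were 48.9 ± 6.94 CPM at 5 weeks and 24.6 ± 1.64 CPM at 24 weeks (SD, n = 3). The log2 fold change was -0.99 (SE 0.13, adjusted p = 0.000378 by edgeR's quasi-likelihood test). Without the 24-week replicate 3 it was -0.95 (adjusted p = 0.00274). Most markers of border-associated macrophages, the CD11b+ macrophages of the vessels and brain borders, fell alongside. Of 10 such genes 8 were lower and 2 did not pass, and their summed level was 1073 to 1392 CPM at 5 weeks and 588 to 697 at 24 weeks. Among them Mrc1, the mannose receptor, had a log2 fold change of -1.05. Of the 2 that did not pass, Cd209f was at -0.47 and Siglec1 went the other way at 0.61 (adjusted p = 0.146 and 0.0512 by edgeR). The part of these cells in the Ccr1 values was not tested.

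Cxcr4 (ENSMUSG00000045382, chr1:128588199-128592293, minus strand), the receptor for CXCL12 that retains leukocytes in bone marrow and guides migrating neural cells, moved the other way. It had 14.5, 11.4 and 12.3 CPM at 5 weeks and 20.9, 20.4 and 22.2 CPM at 24 weeks, from 261 to 533 and from 238 to 286 counts. The lowest 24-week library was above the highest 5-week library. The rise was 1.66-fold, or 0.73 on the log2 scale (SE 0.14, adjusted p = 0.00282 by edgeR), and 0.69 without the 24-week replicate 3 (adjusted p = 0.0145). Vessel cells can also express Cxcr4, and although selection for CD11b should remove them, their markers were present and rose. Of 13 endothelial markers 10 were higher, with a summed level of 295 to 358 CPM at 5 weeks and 639 to 666 at 24 weeks, and of 10 mural cell markers 7 were higher, with sums of 161 to 195 and 312 to 347. Their part in the Cxcr4 values was not tested.

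Ccr6 (ENSMUSG00000040899, chr17:8236043-8257141, plus strand) is the CCL20 receptor, known from B cells, T helper cells and dendritic cells. It was sparse, with 57, 24 and 99 counts at 5 weeks and 63, 53 and 39 at 24 weeks, equal to 1.78, 1.05 and 2.29 CPM and to 4.60, 3.92 and 3.64 CPM. The ages did not overlap, and edgeR's estimate was 2.33-fold higher at 24 weeks. The log2 fold change was 1.22 (SE 0.29, 95% interval 0.57 to 1.86, adjusted p = 0.0103 by edgeR), and 1.28 without the 24-week replicate 3 (adjusted p = 0.0205). The call was lost without the 24-week replicate 1, where the value was 1.12 with an adjusted p of 0.0526. In that fit 18.3% of all genes were called. The B cell markers Cd79a, Ms4a1, Pax5 and Vpreb3 were each under 1 CPM in all 6 libraries, as were the T cell markers Cd3d, Cd3e, Cd3g, Cd2, Cd8a and Trbc2. The summed level of the whole list of 8 B cell genes was 193 to 313 CPM at 5 weeks and 231 to 281 at 24 weeks. Most of it was Ighm alone, at 166 to 277 and 206 to 255 CPM. Of the 3 B cell genes tested, 1 was higher and 1 lower. The sum of the 12 T and NK cell genes was 55.6 to 77.4 and 30.1 to 42.8 CPM, with 2 of 6 tested lower. Il7r alone gave 40.8 to 51.1 and 16.1 to 31.9 CPM of it.

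The counts of 2 receptors within a library can be compared without any scaling for depth. Ccr1 had 3.83 ± 0.296 counts for each Cxcr4 count at 5 weeks and 1.17 ± 0.117 at 24 weeks (SD, n = 3), with no overlap. Each Cx3cr1 count came with 0.00262 ± 0.000240 counts of Cxcr4 at 5 weeks and 0.00505 ± 0.000295 at 24 weeks. These pairs were chosen after their values were seen, so the ratios are a description with no test.

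The promoters of the 3 called receptors and of Cx3cr1 are shown to place the genes that differed in sequence context. Each run is the 250 bases before the RefSeq start (GRCm38.p6), 5′ to 3′ on the gene's strand, with matches to the searched motifs in capitals. All 8 receptors have such a window. Ccr6 has 2 RefSeq starts, and the window of the first is printed. The motifs were GAGGAA (the core bound by PU.1, the myeloid master regulator), TATAAA (the TATA box), TGANTCA (AP-1) and GGGCGG (the GC box), on both strands. They occur in 23.3%, 12.4%, 6.75% and 32.7% of the 32851 windows of the same length.
Ccr1, chr9:123968693-123968942, minus strand: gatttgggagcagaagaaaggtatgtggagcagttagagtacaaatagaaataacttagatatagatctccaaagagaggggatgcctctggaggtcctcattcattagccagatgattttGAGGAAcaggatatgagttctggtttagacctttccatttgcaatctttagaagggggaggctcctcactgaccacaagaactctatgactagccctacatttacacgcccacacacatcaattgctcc
Ccr6, chr17:8235793-8236042, plus strand: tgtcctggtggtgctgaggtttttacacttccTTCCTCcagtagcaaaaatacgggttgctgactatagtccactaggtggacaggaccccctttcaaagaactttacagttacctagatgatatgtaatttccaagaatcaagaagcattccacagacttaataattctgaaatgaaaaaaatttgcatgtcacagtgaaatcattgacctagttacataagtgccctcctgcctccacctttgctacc
Cxcr4, chr1:128592300-128592549, minus strand: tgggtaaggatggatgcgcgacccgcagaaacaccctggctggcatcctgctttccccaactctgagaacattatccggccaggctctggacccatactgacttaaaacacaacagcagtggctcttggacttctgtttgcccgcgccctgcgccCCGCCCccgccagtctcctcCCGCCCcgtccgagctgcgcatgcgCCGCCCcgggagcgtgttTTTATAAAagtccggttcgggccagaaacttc
Cx3cr1, chr9:120068297-120068546, minus strand: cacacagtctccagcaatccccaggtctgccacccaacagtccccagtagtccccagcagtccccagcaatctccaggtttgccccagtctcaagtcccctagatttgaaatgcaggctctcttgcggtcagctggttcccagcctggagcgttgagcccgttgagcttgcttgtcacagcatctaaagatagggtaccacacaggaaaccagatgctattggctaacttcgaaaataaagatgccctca
In the Ccr1 window 1 PU.1 core lies 129 to 124 bases before the start, and in the printed Ccr6 window 1 lies 218 to 213 bases before it on the other strand. The window of the second Ccr6 start (chr17:8242276-8242525, 46% GC) holds none of the motifs. The Cxcr4 window, with a GC content of 61.2%, holds 3 GC boxes on the other strand and TATA box matches on both strands that overlap, 32 to 25 bases before the start. The Ccr1 and first Ccr6 windows have GC contents of 43.6% and 41.2%, below the median window at 52.4%. None of the 4 motifs occurs in the Cx3cr1 window at 53.6% GC. These are matches of letters only.

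Cmklr1 (ENSMUSG00000042190, chr5:113612354-113650426, minus strand), the signalling receptor for chemerin, had 188, 161 and 251 CPM at 5 weeks and 287, 227 and 249 CPM at 24 weeks. The ages overlapped, since the 5-week replicate 3 was above 2 of the 3 libraries of 24 weeks. In log2 terms the difference was 0.34 (95% interval -0.01 to 0.70, adjusted p = 0.132 by edgeR). Without that 5-week replicate 3 it was 0.55 with an adjusted p of 0.00375, in a fit that called 37.9% of all genes. With all 6 libraries Cmklr1 also passed when scaled by total counts only (adjusted p = 0.0405) and with length and GC trends removed (adjusted p = 0.0486).

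Ccrl2 (ENSMUSG00000043953, chr9:111054486-111057519, minus strand), the atypical receptor that binds chemerin and presents it to cells with CMKLR1, had 179.7, 184.2 and 239.8 CPM at 5 weeks and 191.1, 147.0 and 167.4 CPM at 24 weeks. Again the 5-week replicate 3 was the highest, and the ages overlapped. On the log2 scale the difference was -0.26 (95% interval -0.57 to 0.05, adjusted p = 0.197 by edgeR). Immediate early genes rise during tissue dissociation. Their summed level was also highest in the 5-week replicate 3, at 27612 CPM against 18631 to 23218 in the other 5 libraries. Of the 10 listed, 3 were higher at 24 weeks, 1 was lower and 6 did not pass. Egr1, Fosb and Nr4a1 were lower in the 5-week replicate 3 than in every 24-week library. The part of these genes in the Ccrl2 values was not tested. As a description with no test, on a pair chosen after its values were seen, Cmklr1 had 1.05, 0.876 and 1.05 counts per Ccrl2 count at 5 weeks and 1.499, 1.54 and 1.489 at 24 weeks.

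Fpr1 (ENSMUSG00000045551, chr17:17876471-17883940, minus strand), which senses formylated peptides of bacteria and mitochondria in neutrophils and macrophages, had 78, 45 and 76 counts at 5 weeks and 34, 23 and 29 at 24 weeks. This gave 2.44, 1.97 and 1.76 CPM against 2.48, 1.70 and 2.71 CPM, which overlap. The difference was 0.16 on the log2 scale (95% interval -0.45 to 0.76, adjusted p = 0.707 by edgeR).

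Fpr2 (ENSMUSG00000052270, chr17:17887824-17893952, plus strand) binds formyl peptides, annexin A1 and serum amyloid A. It had 84, 33 and 50 counts at 5 weeks and 19, 16 and 16 at 24 weeks, or 2.63, 1.44 and 1.16 CPM and 1.39, 1.18 and 1.495 CPM. The 5-week replicate 1 was the highest and the ages overlapped. The log2 fold change was -0.36 (95% interval -1.17 to 0.44, adjusted p = 0.488 by edgeR), and 0.06 without the 5-week replicate 1. These counts are uncertain, as 37.2% of the 50-base words of its longest transcript also occur in Fpr1, Fpr3 or Gm5966, and its exons overlap Fpr3 on the same strand. For the other 7 receptors this share was at most 0.270%. Of 11 neutrophil and monocyte markers tested, 1 was lower and 10 did not pass, with a summed level of 558 to 888 CPM at 5 weeks and 693 to 892 at 24 weeks, and their part in the Fpr1 and Fpr2 values was not tested.

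**Figure D3:**
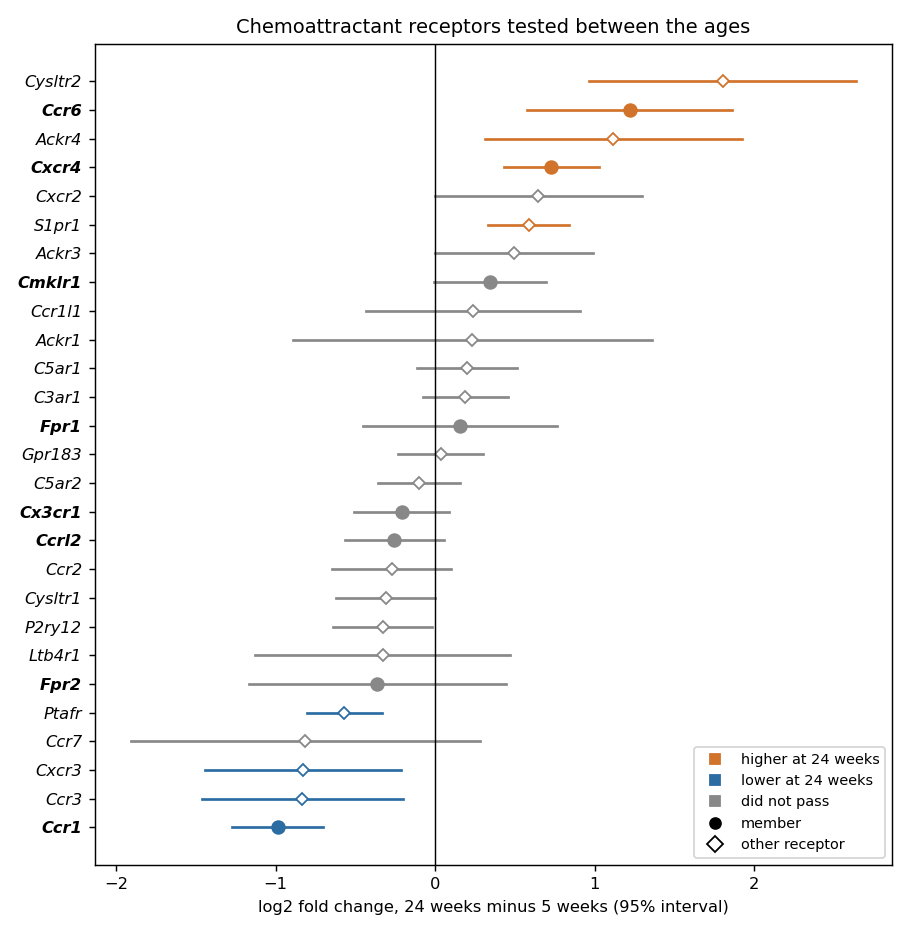
Log2 fold change (24 weeks minus 5 weeks) with its 95% interval for the tested chemoattractant receptors, with filled circles for the 8 receptors, open diamonds for the others, and orange or blue for those that passed edgeR's test as higher or lower. Ccr1 at -0.99, Cxcr4 at 0.73 and Ccr6 at 1.22 have intervals that leave out 0, and the intervals of the other 5 described receptors include it.

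For comparison, 36 further chemoattractant receptors were listed, of which 19 had enough counts and 6 passed, 31.6% of those tested and near the 28.8% of all genes. S1pr1, the sphingosine phosphate receptor, was higher (log2 fold change 0.58, adjusted p = 0.00387 by edgeR), as were the leukotriene receptor Cysltr2 (1.80, adjusted p = 0.00547) and the scavenging receptor Ackr4 (1.12, adjusted p = 0.0413). Ptafr, the receptor for platelet-activating factor, was lower (-0.57, adjusted p = 0.00283), as were Cxcr3 (-0.83, adjusted p = 0.0466) and Ccr3 (-0.83, adjusted p = 0.0489). The calls of Ackr4, Cxcr3 and Ccr3 were each lost when single libraries were left out, among them each of the 3 libraries of 24 weeks, and all 3 were lost under DESeq2 (adjusted p = 0.0527, 0.0701 and 0.0552). P2ry12, the ADP receptor of microglial processes and the only listed receptor at the level of Cx3cr1, was at -0.33 (adjusted p = 0.104). Other abundant receptors, which did not pass either, were Gpr183, an oxysterol receptor, at 0.03, and the complement receptors C3ar1 and C5ar1 at 0.19 and 0.20. C5ar1 passed without the 5-week replicate 3 (0.35, adjusted p = 0.0354).

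The ligands of these receptors were measured in the same libraries. Of 29 listed ligand and ligand-processing genes 25 were tested, 4 were higher, 5 lower and 16 did not pass, so that 36% were called beside 28.8% of all genes. Cxcl12, a ligand of CXCR4, had 13.1, 15.9 and 13.1 CPM at 5 weeks and 41.4, 59.6 and 45.1 CPM at 24 weeks. At 24 weeks Cxcl12 was 3.48-fold higher (log2 fold change 1.80, SE 0.16, with an adjusted p of 3.25e-05 by edgeR). It rose alongside the endothelial and mural cell markers given for Cxcr4, and their part was not tested. Of the CCR1 ligands named above with Ccr1, Ccl9 fell (-0.85, adjusted p = 0.000793 by edgeR) and Ccl7 fell (-1.17, adjusted p = 0.0068). Ccl3 rose (0.78, adjusted p = 0.0132, lost without the 24-week replicate 1 with 0.69, adjusted p = 0.0674). Ccl5, named here after its value was seen, did not pass (0.58, adjusted p = 0.236). Ccl6 (-0.49, adjusted p = 0.00971), Cxcl2 (-1.10, adjusted p = 0.00117) and Mif (-1.12, adjusted p = 0.00233) were also lower. Adam10, the protease that sheds fractalkine, was higher (0.63, adjusted p = 0.00289), as was Cxcl9 (1.59, adjusted p = 0.0153, lost without the 24-week replicate 1 or 3 with adjusted p = 0.0505 and 0.0586). Further ligands are named here after their values were seen, as the partners of the receptors above. Cx3cl1, which encodes fractalkine, averaged 16.3 ± 2.21 CPM in young and 14.4 ± 2.12 CPM in older mice (SD, n = 3) and did not pass (-0.19, adjusted p = 0.398). Ccl20, the ligand of CCR6, had 0 counts throughout, which in each library allows up to 3. Rarres2, which encodes chemerin, was near the limit of detection with 1.32 ± 0.500 and 1.02 ± 0.406 CPM.

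Downstream of the receptors, 38 genes of G protein signalling, arrestins, kinases and the actin response were all tested, and 8 passed (21.1%, beside 28.8% of all genes). The G protein beta subunit Gnb1 was higher (0.54, adjusted p = 0.00257 by edgeR), while Gnb2, a beta subunit too, was lower (-0.52, adjusted p = 0.0109) with the gamma subunit Gng5 (-0.56, adjusted p = 0.0299). The small GTPase Rac1 was higher (0.43, adjusted p = 0.0162). Lower were Coro1a, an actin-binding protein of leukocytes (-0.76, adjusted p = 0.000802), the kinase Fyn (-0.51), Rgs1, which shortens G protein signals (-0.55, adjusted p = 0.014), and Was, an actin nucleation regulator (-0.33, adjusted p = 0.0431). The other 30 did not pass. The calls of Rac1, Rgs1, Gng5 and Was were lost when some single libraries were left out, among them the 5-week replicate 1.

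Genes with a pattern most like each receptor were listed by Pearson correlation of log2 normalised CPM over the 6 libraries, among 10120 genes, as a description that shares the same libraries and depth. Ccr1 was most like Pomp (r = 0.998), Trappc3 (0.997) and Abcb4 (0.996), and 462 genes reached 0.95. Cxcr4 was most like Arl4c (0.998), Sp100 (0.989) and Smim19 (0.989), with 100 genes at 0.95. Cx3cr1 was most like Smarce1-ps1 (0.996), Ggta1 (0.995) and Sord (0.989). Ccrl2 was most like Fos (0.990), an immediate early gene, then Glmp (0.990) and Ndufs7 (0.986). Cmklr1 was most like Ly6e (0.993), Lcp2 (0.991) and Bcl7c (0.990). With 6 libraries many genes reach such values.

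**Figure D4:**
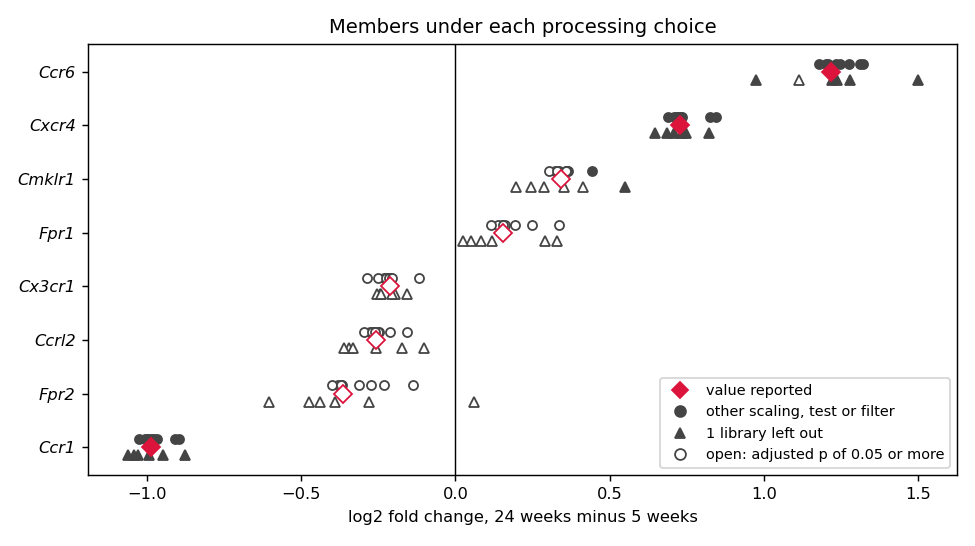
Log2 fold change (24 weeks minus 5 weeks) of the 8 receptors as reported (diamonds), under another scaling, test or filter (circles) and with 1 library left out (triangles), with open symbols where the adjusted p was 0.05 or more. Ccr1 stayed between -1.06 and -0.88 and Cxcr4 between 0.65 and 0.85 in the 15 alternatives, while Fpr2 crossed 0 in 1 of 14.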

How the data were processed

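RNA was measured in microglia of 3 WT mice per age. The authors trimmed read pairs with trim_galore, aligned them with TopHat2 2.0.13 to GRCm38 (mm10) and counted pairs on exons per Ensembl gene, by strand, with HTSeq 0.6.1; versions are from the submitters' processing notes. The deposited values are raw counts without normalization. The 5 rows that name no gene were left out of library sizes and tests: off-exon pairs made up 41.0 ± 0.951% (5 weeks) and 52.0 ± 3.14% (24 weeks) of the uniquely aligned ones, and multiply aligned pairs 34.2 ± 1.41% and 22.9 ± 0.573% of all rows (SD, n = 3). The authors used DESeq2 1.6.3 to compare Het with WT mice.

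Ages were tested against each other in edgeR 4.0.16 under R 4.3.3 (TMM, default filter on low counts, quasi-likelihood test, age only, adjusted p under 0.05 over 16157 genes). Of these, 2505 were higher and 2141 lower. With total counts as the only scaling the split was 3229 and 1466, and with length and GC trends removed 2489 and 3422. limma 3.58.1 and DESeq2 1.42.0 served as alternatives, with other filters, a replicate block, thinning of the 5-week libraries and leaving out each library. Symbols and lengths came from GENCODE M21, which matched 37607 of 38924 identifiers. Motifs were sought in RefSeq promoter windows of GRCm38.p6. Counting intervals and floors cover counting error only, and the higher counts at 5 weeks give lower error there. Scripts were tested on simulated data. The members and lists were chosen with earlier results of these data known. Named are the 8 receptors, from each other list up to 6 genes that passed in each direction by smallest p, the 6 receptors of highest level, and the 3 genes most like each receptor whose mean log2 CPM was 3 or more. Genes beyond this are marked where named, and some listed genes are not reported here.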

Additional observations from a re-analysis of the deposited data

How the results depend on the processing

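Ccr1 and Cxcr4 kept their direction and call in all 15 alternatives. Ccr6 lost its call without the 24-week replicate 1, was not tested with at least 50 counts per library, and kept its call in the other 13. Cmklr1 passed with total counts only (0.44), with length and GC trends removed (0.36) and without the 5-week replicate 3 (0.55). Leaving out each library gave 2 to 4 called of the 8 receptors, 3 to 9 of the other receptors, 7 to 14 ligands, 4 to 22 signalling genes and 2836 to 6042 of all genes, against 3, 6, 9, 8 and 4646. The 22 of 38 signalling genes and 14 of 26 ligands came without the 5-week replicate 3, beside 37.9% of all genes. The 4 signalling genes came without the 5-week replicate 1, which gave 2930 of all genes (18.4%). All genes called were 3087 without the 24-week replicate 1 and 2836 without the 24-week replicate 2. Signalling genes called were 5 without each 24-week library, and the other receptors 3. The shares of all genes were then 18.3%, 16.9% and 20.8% without replicates 1, 2 and 3. With at least 50 counts per library 2 of 10 other receptors passed, beside 34.9% of all genes, and with length and GC trends removed 14 of 38 signalling genes did, beside 36.6%. The cause was not tested. Fpr2 turned from -0.36 to 0.059 without the 5-week replicate 1, with a range of -0.60 to 0.059 over the libraries left out. Gpr183 turned to -0.0050 with no filter, and leaving out libraries gave -0.042 to 0.13. P2ry12 passed with DESeq2 (-0.35, adjusted p = 0.0287) and, like C5ar1, without the 5-week replicate 3. Cxcr3 and Ccr3 also lost their calls under limma-voom and with total counts only.

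The replicate numbers are only labels: deviations of same-numbered libraries correlated at 0.07, 0.09 and -0.05, and 3 of 6 libraries correlated best with their own number. With a replicate block 3 receptors, 6 other receptors, 11 ligands, 8 signalling genes and 4375 of all genes passed, and Was lost its call (adjusted p = 0.0576). The lower depth at 24 weeks limits the sparse receptors Ccr6, Fpr1 and Fpr2 most. The p-values measure only the spread within each age, from 3 mice per age. This spread includes counting error, and edgeR estimates it partly from all genes tested.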
